A study of Mus musculus with 6 samples.

Results

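The interferon gamma induced GTPase genes of the mouse were examined in splenic monocytes with and without the interleukin-4 receptor alpha chain. The set held 10 named genes of the 55421 gene identifiers counted, namely the guanylate binding protein (GBP) genes *Gbp2*, *Gbp3*, *Gbp4*, *Gbp5*, *Gbp7*, *Gbp8* and *Gbp9* and the immunity related GTPase (IRG) genes *Irgm1*, *Irgm2* and *Igtp*. They were chosen by name, without a threshold on measured values. All 10 genes passed the filter on low counts.

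RNA sequencing was performed on spleen monocytes of mice of the C57BL/6 strain, 3 of the genotype IL-4Rα+/+ and 3 of the genotype IL-4Rα-/-. The IL-4Rα-/- mice lacked the receptor chain in every cell of the body, so a difference between the genotypes could arise in the monocytes or in any other cell that normally carries it. Monocytes were enriched from spleen cell suspensions by removing other cells with antibodies and magnetic beads, and the labels name no treatment. The ages and sexes of the individual mice are not in the sample labels. Each library held 26807281 to 29033297 reads on genes, and levels are given as CPM (the count of a gene divided by the library's reads on genes and scaled to a common total) after TMM scaling, a correction for the composition of each library.

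GBPs are large GTPases that assemble on the membranes of pathogen vacuoles and on bacteria in the cytosol of cells exposed to interferon gamma. IRG proteins are smaller GTPases of the same response, and the regulatory IRGM members, to which *Irgm1*, *Irgm2* and *Igtp* belong, sit on host membranes and hold the vacuole-attacking IRG proteins inactive there. Interferon gamma induces both families with the help of the factor IRF1, while interleukin-4 signals through IL-4Rα and STAT6 and directs macrophages towards another state of activation.

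The genes lie on 3 chromosomes of the GRCm38 genome (Gencode M21 gene spans). *Gbp5* (chr3:142493978-142522344), *Gbp7* (chr3:142530342-142550149), *Gbp3* (chr3:142560026-142573209) and *Gbp2* (chr3:142620602-142638008) follow each other on the plus strand of chromosome 3. *Gbp8* (chr5:105014150-105139540), *Gbp9* (chr5:105077630-105139539) and *Gbp4* (chr5:105115767-105139586) have gene models on the minus strand of chromosome 5 that overlap and share 60 to 61 exon bases. On chromosome 11, *Irgm1* (chr11:48861968-48871683) lies on the minus strand, apart from *Igtp* (chr11:58199556-58207591) and *Irgm2* (chr11:58199618-58222782), which lie on the plus strand and share 162 exon bases. All 10 are annotated as protein coding, and their identifiers are ENSMUSG00000105504.4 (*Gbp5*), ENSMUSG00000040253.15 (*Gbp7*), ENSMUSG00000028268.14 (*Gbp3*), ENSMUSG00000028270.12 (*Gbp2*), ENSMUSG00000034438.16 (*Gbp8*), ENSMUSG00000029298.15 (*Gbp9*), ENSMUSG00000079363.7 (*Gbp4*), ENSMUSG00000046879.7 (*Irgm1*), ENSMUSG00000078853.8 (*Igtp*) and ENSMUSG00000069874.7 (*Irgm2*).

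Promoter sequences are shown because interferon induction acts through short motifs near the start of these genes. RefSeq promoter windows of GRCm38.p6, from 250 bases before to 50 bases after each start, were found for 7 of the 10 genes, and those of *Gbp4*, *Gbp8* and *Gbp9* were not analysed here. In the stretches below, written 5′ to 3′ on the strand of the gene, capitals mark a core of the interferon-stimulated response element, searched as GAAA, any 2 bases and GAAA again, or the same letters read on the other strand (TTTC, any 2 bases and TTTC).
Gbp2: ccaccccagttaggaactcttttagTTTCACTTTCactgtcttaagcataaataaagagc
Gbp3: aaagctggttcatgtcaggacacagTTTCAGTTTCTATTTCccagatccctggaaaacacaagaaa
Gbp5: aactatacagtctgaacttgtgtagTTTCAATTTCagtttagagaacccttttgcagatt
Gbp7: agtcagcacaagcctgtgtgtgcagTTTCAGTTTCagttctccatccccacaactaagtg
Irgm1: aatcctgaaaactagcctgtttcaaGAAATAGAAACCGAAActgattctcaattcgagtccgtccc
Irgm2: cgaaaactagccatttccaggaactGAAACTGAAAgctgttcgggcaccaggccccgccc
Igtp: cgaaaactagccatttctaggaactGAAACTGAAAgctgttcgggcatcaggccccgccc

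These stretches lie at chr3:142620579-142620638 for *Gbp2*, chr3:142559974-142560039 for *Gbp3*, chr3:142496744-142496803 for *Gbp5* and chr3:142530258-142530317 for *Gbp7*, all on the plus strand. Those of *Irgm1* (chr11:48871410-48871475, minus strand), *Irgm2* (chr11:58214888-58214947, plus strand) and *Igtp* (chr11:58199497-58199556, plus strand) come from chromosome 11. All 7 genes held the motif, in 7 of their 8 windows, against 3.44% of all 32851 promoter windows. It was present in 6 of 9 windows (66.7%) of further genes listed with the GBP and IRG families. Among windows of type I interferon stimulated genes, 11 of 24 (45.8%) held it. The shares were lower for other interferon gamma targets (3 of 22, 13.6%) and for genes of the interferon gamma receptor and signal (2 of 15, 13.3%). Of the windows of vacuole and inflammasome partners, 1 of 25 (4.0%) held it. *Gbp3* and *Irgm1* held overlapping matches on the same strand. In the chromosome 3 GBP genes the motif was read on the strand opposite to the gene, and in the IRG genes on the strand of the gene itself. *Gbp2* and *Gbp5* also held a core bound by NF-kB, searched on both strands as GGGA, any 2 bases and TTCC, which was present in 1.47% of all windows. Over the whole window, the promoters of *Irgm2* and *Igtp* were identical at 73.5% of aligned positions, and the next most similar pair, *Irgm1* and *Igtp*, at 53.9%. These matches describe the letters of the reference genome and do not show binding.

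All 10 genes were expressed in every library. Per kilobase of exon model, the order of mean levels over the 6 libraries ran from *Gbp2* (40.2 ± 7.48 CPM per kb, SD, n = 6) through *Gbp3* (31.9 ± 3.96), *Irgm2* (28.9 ± 1.93), *Igtp* (27.1 ± 2.64), *Irgm1* (25.2 ± 1.93) and *Gbp9* (22.4 ± 4.03) to *Gbp8* (13.4 ± 3.49), *Gbp5* (9.28 ± 0.735), *Gbp7* (7.87 ± 2.15) and *Gbp4* (1.89 ± 0.504). The ranges of neighbours in this order overlapped, apart from those of *Gbp7* and *Gbp4*. *Gbp9* exceeded *Gbp8* and *Gbp8* exceeded *Gbp5* in 6 of 6 libraries although their ranges touched across libraries. By their means the 3 IRG genes stood next to each other in the order, below *Gbp2* and *Gbp3* and above *Gbp9*, while *Gbp4* was the lowest by the mean per length.

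**Figure D1:**
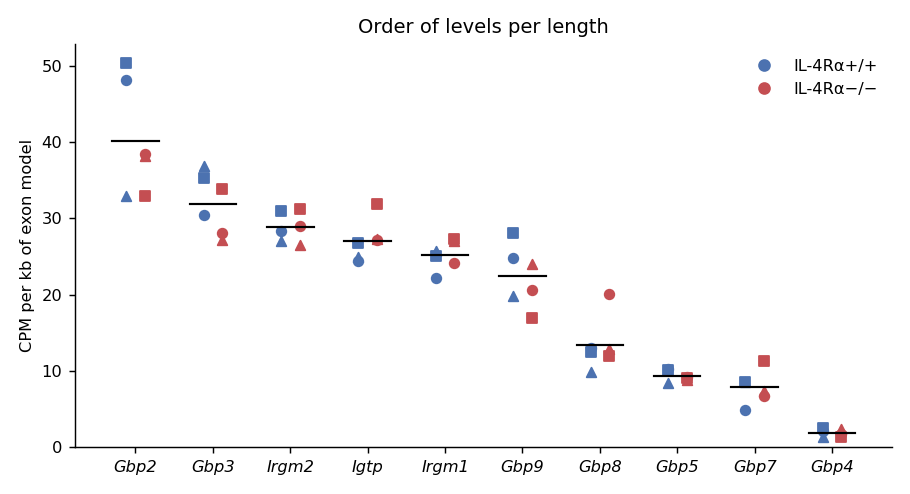
CPM per kilobase of exon model (y axis) of the 10 genes, ordered by the mean over 6 libraries (black line), with 1 point per library, blue for IL-4Rα+/+ and red for IL-4Rα-/-, and marker shapes for replicates 1 (circle), 2 (square) and 3 (triangle). *Gbp2* lies highest at 32.9 to 50.4 CPM per kb and *Gbp4* lowest at 1.29 to 2.42.

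The deletion was checked on *Il4ra* itself. *Il4ra* measured 137, 128 and 177 CPM in IL-4Rα+/+ replicates 1 to 3 and 27.9, 79.4 and 31.8 CPM in IL-4Rα-/- replicates 1 to 3. All 3 IL-4Rα-/- libraries lay below all IL-4Rα+/+ libraries, with the most remaining reads in replicate 2. The log2 fold change was -1.67 (SE 0.41), with an adjusted p of 0.618 in edgeR's quasi-likelihood test (Benjamini-Hochberg, 13849 genes) and of 0.0111 in DESeq2, the tool the authors used. Without IL-4Rα-/- replicate 2 the log2 fold change was -2.30, and over all libraries left out in turn it ran from -2.30 to -1.41.

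None of the 10 GTPase genes passed the threshold between the genotypes. At the adjusted p of 0.15 that the study used, edgeR called 0 of 10 genes and 0.0% of all 13849 genes, and DESeq2 called 0 of 10 genes and 0.571% of the 14003 genes to which it gave an adjusted p. At an unadjusted p under 0.05, edgeR had 0 of 10 genes and 8.09% of all genes (3.72% higher and 4.37% lower in IL-4Rα-/- mice). DESeq2 had 0 of 10 genes and 4.7% of the 25728 genes to which it gave a p. The log2 fold change of IL-4Rα-/- against IL-4Rα+/+ was above 0 for 5 genes (*Gbp7*, *Gbp8*, *Irgm1*, *Irgm2*, *Igtp*) and below 0 for the other 5 (*Gbp2*, *Gbp3*, *Gbp4*, *Gbp5*, *Gbp9*), with a median of -0.04 against 0.01 over all genes tested. The adjusted p-values of the 10 genes in edgeR's quasi-likelihood test (Benjamini-Hochberg) ranged from 0.632 to 0.981. In bulk RNA, fewer cells of a type and less RNA per cell cannot be told apart, and this holds for every level given here.

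**Figure D2:**
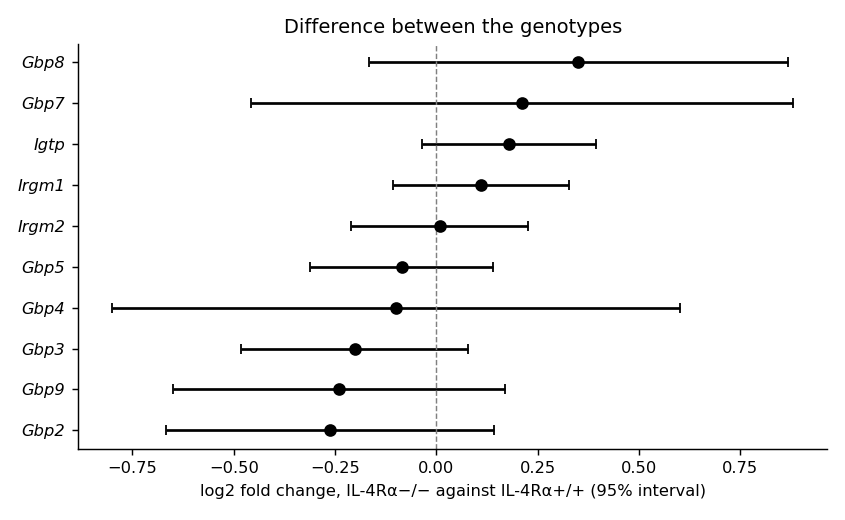
Log2 fold change of IL-4Rα-/- against IL-4Rα+/+ (x axis) for each of the 10 genes (y axis), with points for the estimate of edgeR's quasi-likelihood fit and bars for its 95% interval. All 10 intervals include 0 (dashed line), from -0.80 at the lowest bound (*Gbp4*) to 0.88 at the highest (*Gbp7*).

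A p that misses the threshold does not show equal levels, and the intervals tell how large a difference the data still allow. The narrowest intervals were those of *Igtp*, *Irgm1*, *Irgm2* and *Gbp5*. For *Irgm2* the level in IL-4Rα-/- mice was 1.01 times that in IL-4Rα+/+ mice, with a 95% interval of 0.865 to 1.17 times. The interval of *Irgm1* ran from 0.928 to 1.25 times and that of *Gbp5* from 0.806 to 1.10 times. The widest were those of *Gbp4*, from 0.574 to 1.52 times, and *Gbp7*, from 0.728 to 1.84 times.

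Among the regulatory IRG genes, *Igtp*, also known as Irgm3 and located on the endoplasmic reticulum and lipid droplets, was the only gene of the 10 whose genotypes did not overlap. *Igtp* measured 49.4, 54.2 and 50.5 CPM in IL-4Rα+/+ replicates 1 to 3 and 54.8, 64.5 and 55.1 CPM in IL-4Rα-/- replicates 1 to 3. The lowest IL-4Rα-/- library lay just above the highest IL-4Rα+/+ library, and IL-4Rα-/- replicate 2 stood highest. Means were 51.4 ± 2.53 and 58.2 ± 5.50 CPM (SD, n = 3 each), a log2 fold change of 0.18 (SE 0.09, 95% interval -0.04 to 0.39). The adjusted p was 0.632 in edgeR's quasi-likelihood test (Benjamini-Hochberg), and an exact permutation test (two-sided, 20 labelings) gave p = 0.1, the smallest that 3 against 3 mice allow. A gap in this direction occurred in 7.63% of all genes tested, in the other direction in 7.87% and in either direction in 15.5%, so 1 of 10 genes without overlap is near the background.

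*Irgm1*, needed in mice for resistance to mycobacteria and several other intracellular pathogens, measured 129, 146 and 149 CPM in IL-4Rα+/+ replicates 1 to 3 and 141, 159 and 157 CPM in IL-4Rα-/- replicates 1 to 3. The genotypes overlapped, with replicate 1 the lowest of either group. *Irgm2*, found at the Golgi apparatus and known to limit caspase-11 activation, had 105, 114 and 99.9 CPM in IL-4Rα+/+ mice and 107, 115 and 97.9 CPM in IL-4Rα-/- mice. The 6 libraries of *Irgm2* were interleaved, and this gene varied least of all 10 across libraries, by 1.18-fold from lowest to highest. The level of the 3 IRG genes summed was 299 ± 15.8 CPM in IL-4Rα+/+ and 317 ± 18.7 CPM in IL-4Rα-/- mice, with overlapping ranges.

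*Gbp2* and *Gbp5* encode GBPs that carry a lipid anchor, *Gbp2* being recruited to the vacuole of *Toxoplasma* and *Gbp5* being known for promoting inflammasome assembly. *Gbp2* measured 121, 127 and 82.9 CPM in IL-4Rα+/+ replicates 1 to 3 and 96.9, 82.9 and 96.0 CPM in IL-4Rα-/- replicates 1 to 3. IL-4Rα+/+ replicate 3 stood apart from the other IL-4Rα+/+ libraries and was as low as the lowest IL-4Rα-/- library. The means were 110.3 ± 23.9 and 91.9 ± 7.84 CPM, and the log2 fold change of -0.26 (SE 0.17) was the lowest of the 10, with a 95% interval of -0.67 to 0.14 and an adjusted p of 0.665 by edgeR's quasi-likelihood test (Benjamini-Hochberg). Leaving out each library in turn moved the difference from -0.43 (without IL-4Rα+/+ replicate 3) to -0.15 (without IL-4Rα+/+ replicate 2). *Gbp5* measured 67.5, 67.3 and 55.5 CPM in IL-4Rα+/+ and 61.2, 59.8 and 58.3 CPM in IL-4Rα-/- mice, and again the IL-4Rα+/+ replicate 3 library was the lowest while the IL-4Rα-/- libraries lay close together between the others.

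*Gbp3* and *Gbp7* complete the chromosome 3 cluster, and *Gbp7* is known for its part in the killing of *Listeria* and mycobacteria by macrophages. *Gbp3* measured 99.4, 115 and 120.2 CPM in IL-4Rα+/+ replicates 1 to 3 and 91.6, 110.5 and 88.8 CPM in IL-4Rα-/- replicates 1 to 3. The IL-4Rα-/- libraries of replicates 1 and 3 lay below all IL-4Rα+/+ libraries and replicate 2 lay among them, for a log2 fold change of -0.20 (SE 0.12, 95% interval -0.48 to 0.08). *Gbp7* measured 27.1, 47.7 and 48.0 CPM in IL-4Rα+/+ and 37.7, 63.1 and 41.3 CPM in IL-4Rα-/- mice, and its difference of 0.21 (SE 0.28) rested on a low IL-4Rα+/+ replicate 1 and a high IL-4Rα-/- replicate 2. Without the former the difference was -0.02 and without the latter -0.05. Of the *Gbp7* exon bases, 637 are shared with the overlapping gene *Gm43802*, the most for any of the 10 genes. The 4 genes of the chromosome 3 cluster summed to 326 ± 27.02 CPM in IL-4Rα+/+ and 296 ± 17.6 CPM in IL-4Rα-/- mice, and these ranges overlapped.

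*Gbp4*, *Gbp8* and *Gbp9* form the chromosome 5 group. *Gbp9*, the most abundant of them, measured 128, 146 and 102 CPM in IL-4Rα+/+ replicates 1 to 3 and 107, 87.6 and 124 CPM in IL-4Rα-/- replicates 1 to 3, with a log2 fold change of -0.24 (SE 0.17, 95% interval -0.65 to 0.17). Its libraries overlapped across the genotypes, with IL-4Rα-/- replicate 2 lowest and IL-4Rα+/+ replicate 2 highest. *Gbp8* measured 44.5, 42.9 and 34.0 CPM in IL-4Rα+/+ and 69.2, 41.2 and 44.3 CPM in IL-4Rα-/- mice. The single high library, IL-4Rα-/- replicate 1, set its log2 fold change of 0.35 (SE 0.22, 95% interval -0.17 to 0.87), the highest of the 10, which was 0.08 without that library. *Gbp4* measured only 16.0, 18.1 and 9.70 CPM in IL-4Rα+/+ and 12.8, 10.2 and 17.9 CPM in IL-4Rα-/- mice, so that each genotype held high and low libraries alike. Its log2 fold change was -0.10 (SE 0.29), and this turned to 0.09 without IL-4Rα+/+ replicate 2 and to 0.08 without IL-4Rα-/- replicate 2. The group summed to 181 ± 31.2 and 171 ± 28.1 CPM in the 2 genotypes.

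**Figure D3:**
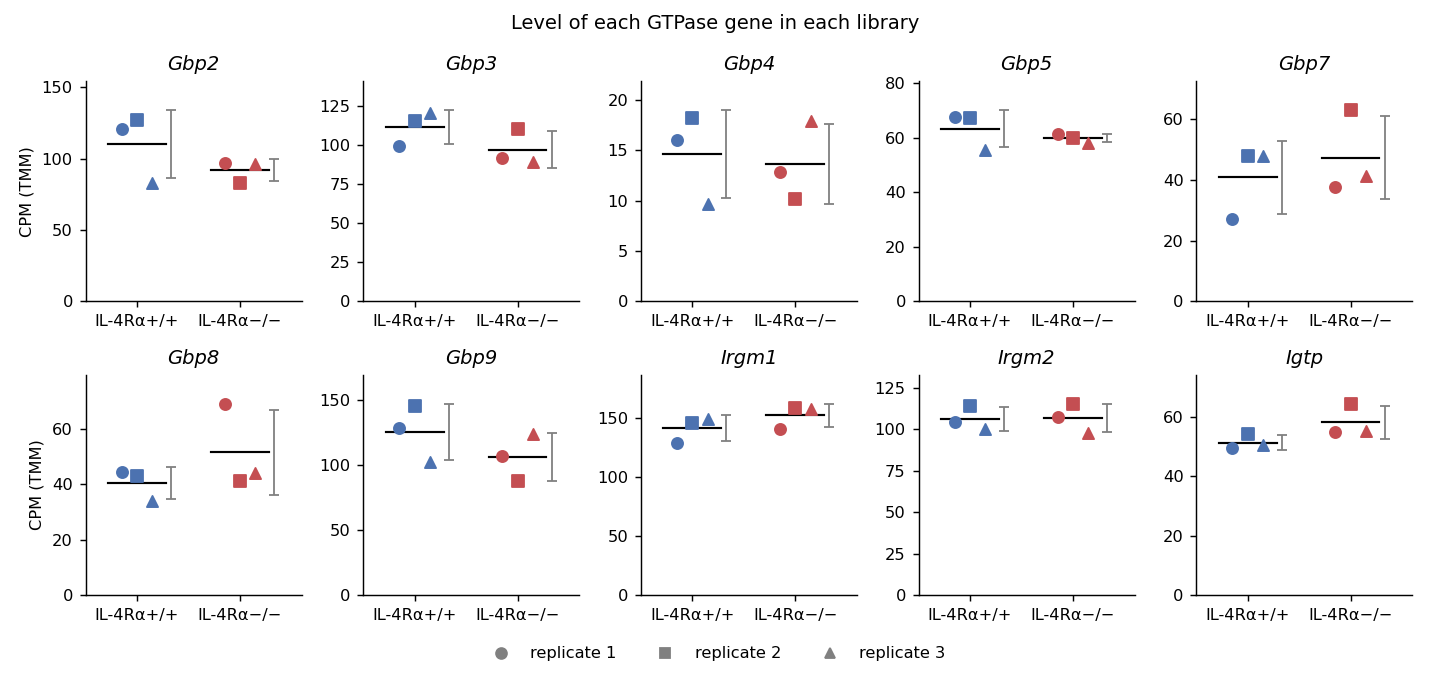
CPM after TMM scaling (y axis, from 0) of each of the 10 genes in IL-4Rα+/+ (blue) and IL-4Rα-/- (red) libraries, with 1 marker per replicate, a black line at the mean and a grey bar of ± 1 SD (n = 3 each). The genotypes overlap in 9 of 10 panels, and *Igtp* is the exception, with 49.4 to 54.2 against 54.8 to 64.5 CPM.

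For several of these genes, such as *Gbp4* and *Gbp7*, the SD within a genotype exceeded the difference between the genotype means, and the libraries also differed in the markers of the monocyte subsets. Monocyte genes were high in all 6 libraries, *Csf1r*, the receptor for macrophage colony-stimulating factor, at 2225 to 3092 CPM. Spleens hold classical Ly6C high monocytes and Ly6C low patrolling monocytes, and the ratio of summed CPM of 9 Ly6C high to 10 Ly6C low marker genes was 0.232, 0.628 and 2.35 in IL-4Rα+/+ replicates 1 to 3 and 0.694, 3.73 and 0.833 in IL-4Rα-/- replicates 1 to 3. In log2 fold change of IL-4Rα-/- against IL-4Rα+/+, 9 of 9 Ly6C high markers lay above 0 (median 0.44). Of the Ly6C low markers, 10 of 10 lay below 0 (median -0.40). None of these markers had an unadjusted p under 0.05 in edgeR's quasi-likelihood test. By the ratio, each genotype had 1 library far richer in Ly6C high markers than the others, replicate 3 in IL-4Rα+/+ and replicate 2 in IL-4Rα-/- mice. The description by this ratio was chosen after the levels had been seen.

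*Gbp2*, *Gbp4*, *Gbp8* and *Gbp9* were lowest in these same libraries within each genotype, which held for 4 of 10 genes and for 24.2% of all genes tested. *Gbp3*, *Gbp7* and *Irgm1* were highest in them, or 3 of 10 genes against 24.9% of all genes, so that neither count is far from the share over all genes. Relative to the mean of the other libraries of the genotype, *Gbp4* differed by -0.81 log2 units in the IL-4Rα+/+ library and by -0.58 in the IL-4Rα-/- library, and *Gbp9* by -0.42 and -0.39. *Gbp7* differed in the opposite direction, by 0.42 and 0.68. *Gbp5* was lower only in the IL-4Rα+/+ library, by -0.28 against 0.00219 in the IL-4Rα-/- library.

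Across the 6 libraries, Pearson's r between log2 CPM and the log2 marker ratio was -0.86 for *Gbp2*, -0.79 for *Gbp9*, -0.77 for *Gbp4* and -0.74 for *Gbp5*, and 0.90 for *Gbp7* and 0.81 for *Irgm1*. The other 4 genes had 0.64 (*Igtp*), 0.48 (*Gbp3*), 0.17 (*Irgm2*) and -0.40 (*Gbp8*). The 2 libraries farthest from the median log2 ratio were IL-4Rα+/+ replicate 1 and IL-4Rα-/- replicate 2. Without them, r was -0.78 for *Gbp2*, -0.66 for *Gbp9*, -0.82 for *Gbp4*, -0.81 for *Gbp5*, -0.68 for *Gbp8* and 0.53 for *Gbp3*. It was 0.48 for *Gbp7* and 0.25 for *Irgm1*, and it turned to -0.94 for *Igtp* and -0.60 for *Irgm2*. The positive relations of *Gbp7*, *Irgm1* and *Igtp* thus rested largely on the 2 libraries left out. IL-4Rα+/+ replicate 3, also rich in Ly6C high markers, was kept. These values depend largely on its ratio of 2.35, since the other libraries kept had 0.628 to 0.833. These are descriptions over 6 libraries that share their scaling and include both genotypes. Fits with this ratio as a covariate, and without both libraries richest in Ly6C high markers, are given in the closing section. The part of the subset makeup in the levels was not tested otherwise.

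**Figure D4:**
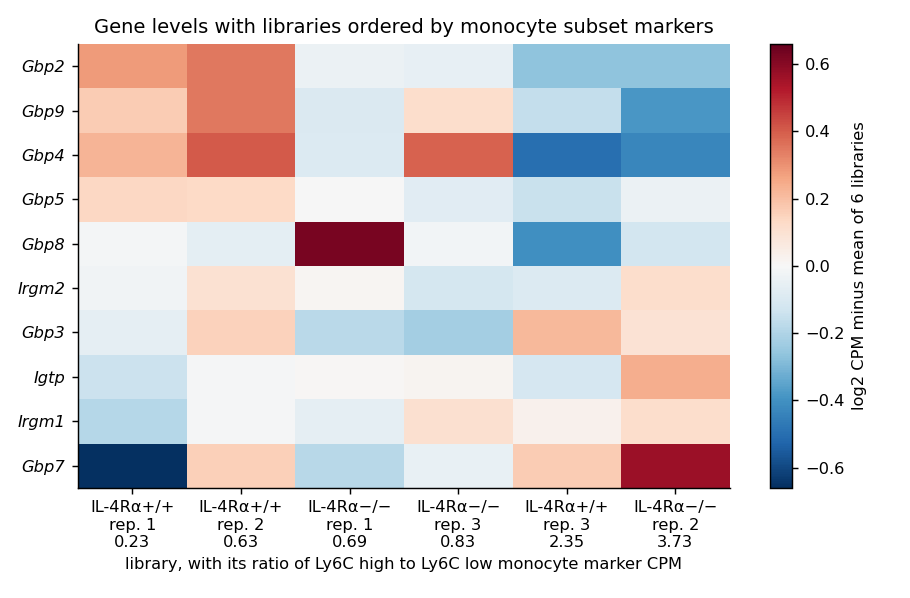
Log2 CPM of each of the 10 genes (rows) minus its mean over 6 libraries (colour, red above and blue below the mean), with the libraries (columns) ordered by the ratio of Ly6C high to Ly6C low marker CPM printed under each. *Gbp2*, *Gbp9* and *Gbp4* are bluest and *Gbp7* reddest in the rightmost column, where the ratio is 3.73. In the column with the ratio 2.35, *Gbp4* and *Gbp8* are bluest and *Gbp3* is reddest.

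The 10 genes did not share a single pattern across the libraries. Among 45 pairs of the 10 genes, 5 had a Pearson's r above 0.8 over the 6 libraries, 21 were below 0 and 6 below -0.5. The closest pairs were *Gbp2* with *Gbp5* (0.92), *Gbp4* with *Gbp9* (0.91), *Gbp2* with *Gbp9* (0.90), *Gbp7* with *Irgm1* (0.86) and *Gbp2* with *Gbp4* (0.82). *Igtp* and *Irgm2*, the neighbours with the most similar promoters, were not among them. In sum over all 10 genes the level ran from 752 to 878 CPM in IL-4Rα+/+ and from 779 to 794 CPM in IL-4Rα-/- libraries.

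Other cells in the preparations differed between the mice. Summed markers of red pulp macrophages were 3264 to 3828 CPM in IL-4Rα+/+ and 4364 to 7016 CPM in IL-4Rα-/- libraries. They were highest in IL-4Rα-/- replicate 1, and 12 of 12 genes lay above 0 in log2 fold change. Eosinophil, basophil and mast cell markers (79.4 to 94.1 against 136 to 219 CPM) and erythroid markers (73.8 to 141 against 183 to 445 CPM) also did not overlap between the genotypes. Neutrophil markers summed to 61.2 to 255 CPM in IL-4Rα+/+ and 124 to 636 CPM in IL-4Rα-/- libraries, with 10 of 11 tested genes above 0. They were highest within each genotype in the library richest in Ly6C high markers, but *Mmp8* belongs to both marker lists. *Ly6g*, the defining neutrophil marker, was at 0 to 0.315 CPM. Markers of T and NK cells, which can make interferon gamma, summed to 180 CPM in IL-4Rα+/+ replicate 2 and 163 CPM in IL-4Rα-/- replicate 3. In the other libraries they summed to 59.0 to 118 CPM. *Xist*, expressed in females, was at 552 and 457 CPM in IL-4Rα+/+ replicate 1 and IL-4Rα-/- replicate 3 and at 0.0357 to 3.72 CPM in the other 4 libraries, so each genotype held both sexes. The part of these cells in the levels of the GTPase genes was not tested.

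The rest of the family was measured less well. Of 20 further genes listed with the GBP and IRG families and found in the data, 17 passed the filter on low counts. *Gbp10*, *Gbp11* and *Gm4841* did not. The list was wider than these families, since *Gvin1*, *Gm4070* and *Gm8995* are neither GBP nor IRG genes. None of the 17 was called, none had an unadjusted p under 0.05, and 7 lay above and 10 below 0, with a median log2 fold change of -0.15. *Gbp2b*, the gene next to *Gbp2*, measured only 0.315 to 0.913 CPM, with the lowest levels in IL-4Rα+/+ replicate 3 and IL-4Rα-/- replicate 2 as for *Gbp2*. *Iigp1*, an effector IRG that attacks vacuoles, measured 6.19 to 15.3 CPM, with a log2 fold change of 0.29 (SE 0.31). *Gm12250*, also named Irgb10 and known for disrupting bacterial membranes, measured 26.6, 35.7 and 36.5 CPM in IL-4Rα+/+ and 30.4, 43.8 and 31.9 CPM in IL-4Rα-/- mice, with its highest levels in the libraries in which *Gbp7* was highest. *Gm8995*, annotated as a transcribed pseudogene, had the highest CPM of the list, at 474 to 826, with a log2 fold change of -0.26 (SE 0.19). The annotation also lists *Gm12250* as a processed pseudogene and *Gbp11* as a polymorphic one. Further relatives were *9930111J21Rik2* (51.2 to 87.8 CPM), *Gm5431* (27.6 to 45.8), *9930111J21Rik1* (16.3 to 36.1) and *Irgq* (17.6 to 23.4), with log2 fold changes of -0.33, -0.29, -0.58 and 0.01. *Gvin1* and *Gm4070* lay between 9.53 and 18.1 CPM, *Gm4951*, *Gm12185* and *Irgc1* between 1.28 and 8.88 CPM, and *F830016B08Rik* at 0.169 to 0.632 CPM. Several relatives could not be measured with confidence, since the share of their 75-base windows found in other genes was high. It was 67.3% for *Gbp6*, 77.8% for *Gbp10*, 77.2% for *Tgtp1*, 81.4% for *Tgtp2*, 96.7% for *Gm4070* and 98.3% for *Gvin1*. For *9930111J21Rik1* it was 76.0% and for *9930111J21Rik2* 52.1%, mostly shared between these genes, and for *Gm5431* 27.2%. For the 10 genes described here it ran from 0 (*Irgm1*) to 11.3% (*Gbp7*).

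The pathway above the GTPases was examined from the ligand downwards. *Ifng*, interferon gamma itself, had 2, 0 and 2 reads in IL-4Rα+/+ and 2, 1 and 7 reads in IL-4Rα-/- libraries and was too low to test, and a level at or under 3 reads was taken as not seen. Of the 13 tested genes of the receptor and signal, none was called. *Ifngr1*, the ligand-binding receptor chain, measured 915, 900.5 and 799 CPM against 811, 771 and 738 CPM (log2 fold change -0.17, SE 0.08), and *Ifngr2*, the second chain, had a log2 fold change of 0.06 (SE 0.08). *Irf8*, a factor of monocyte development, had a log2 fold change of -0.10 (SE 0.12).

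*Irf1*, the factor needed for full induction of the GBP genes, measured 292, 269 and 268 CPM in IL-4Rα+/+ and 250, 245 and 238 CPM in IL-4Rα-/- libraries. All 3 IL-4Rα-/- libraries lay below all IL-4Rα+/+ libraries, with a log2 fold change of -0.18 (SE 0.07) and an unadjusted p of 0.0408, but the adjusted p of edgeR's quasi-likelihood test (Benjamini-Hochberg) was 0.618. It was the only gene of the 13 with an unadjusted p under 0.05, or 7.69% against 8.09% of all genes. Counting *Irf1*, 2 of the 13 genes were lower in IL-4Rα-/- mice without overlap, against 7.87% of all genes tested. For *Irf1* an exact permutation test (two-sided, 20 labelings) gave p = 0.1, the smallest that 3 against 3 mice allow.

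Other interferon gamma targets were not called either. Of 27 tested, 18 lay below 0, against 6719 of all 13849 genes tested, with a median log2 fold change of -0.08. In edgeR's quasi-likelihood test 1 gene had an unadjusted p under 0.05, against 8.09% of all genes. That gene was *Nlrc5*, the activator of MHC class I genes, at 187 ± 27.6 CPM in IL-4Rα+/+ and 150.5 ± 11.4 CPM in IL-4Rα-/- mice (log2 fold change -0.32, SE 0.12, adjusted p = 0.618 by edgeR's quasi-likelihood test, Benjamini-Hochberg). *Ciita*, the activator of MHC class II genes, had a log2 fold change of -0.38 (SE 0.17), and *Lgals3bp*, which encodes a secreted glycoprotein, 0.18 (SE 0.08).

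Genes induced mainly by type I interferon formed a separate list. Of 29 tested, 23 lay above 0 and 6 below, against 7130 above 0 of all 13849 genes tested. The median was 0.09, and none was called. *Isg20*, an RNA exonuclease, at 19.96 ± 0.685 against 23.1 ± 1.14 CPM and *Bst2*, the virus tether tetherin, at 102 ± 8.56 against 122 ± 12.4 CPM were the 2 with an unadjusted p under 0.05 (6.9% of the list, against 8.09% of all genes), with log2 fold changes of 0.21 (SE 0.08) and 0.26 (SE 0.10). *Ifi44* had 0.59 (SE 0.26). With the length trend removed the log2 fold changes were 0.128 for *Isg20*, 0.139 for *Bst2* and 0.599 for *Ifi44*. Whether the type I list differed from the GTPase genes was not tested.

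Of 25 genes of the vacuole and inflammasome machinery with which GBP and IRG proteins work, none was called. Among them 16 lay above 0, against 7130 of all 13849 genes tested. Only *Il18* had an unadjusted p under 0.05 in edgeR's quasi-likelihood test (4.0% of the list, against 8.09% of all genes). Without overlap were 4 genes higher and 1 lower in IL-4Rα-/- mice, against 7.63% and 7.87% of all genes. *Il18*, a cytokine released by inflammasome activity, measured 41.7, 51.0 and 49.2 CPM in IL-4Rα+/+ and 71.2, 66.1 and 57.3 CPM in IL-4Rα-/- libraries, without overlap, with a log2 fold change of 0.46 (SE 0.12) and an adjusted p of 0.618 in edgeR's quasi-likelihood test (Benjamini-Hochberg). *Pycard*, the inflammasome adaptor ASC, had a log2 fold change of -0.75 (SE 0.31). Its levels were widely spread, at 45.5, 80.6 and 93.0 CPM in IL-4Rα+/+ and 35.4, 59.3 and 35.9 CPM in IL-4Rα-/- libraries, and the genotypes overlapped. *Map1lc3a*, an autophagy protein, had 0.39 (SE 0.17).

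The genes most like the mean of the 10, by Pearson's r of log2 CPM over the 6 libraries, were *Gm20457* (0.98), *Gm48066* (0.97), *Aqp3*, *A530010L16Rik*, *Ocel1*, *Tmem203*, *Gm26782*, *Ptpn6* (0.95), *Cd46* and *Cldn20* (0.94). *Ptpn6*, a phosphatase that dampens cytokine signalling, was abundant at 886, 1011 and 878 CPM in IL-4Rα+/+ libraries, whereas *Gm20457*, *Aqp3* and *Cldn20* stayed near or below 1 CPM in most libraries. No p was computed for these likenesses.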

How the data were processed

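RNA of splenic monocytes (IL-4Rα+/+, 3 mice, and IL-4Rα-/-, 3 mice) was sequenced as single-end reads of 75 bases. The authors aligned the reads to GRCm38 with STAR 2.6.1a and Gencode M23 and deposited raw counts per gene, 1 file per library, which were used as they stand. The submitters' processing notes also name RSEM, bcl2fastq 2.19.1.403 and DESeq2 1.22.2. Which strand column of the STAR output was kept is not given in the sources used here, so genes that overlap others are uncertain. STAR counts uniquely mapped reads only, which lowers genes with near-identical copies. STAR's summary lines, which hold ambiguous, multimapping, unassigned and unmapped reads and made up 21.1 to 22.8% of all reads, were left out.

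Groups came from the labels. Counts were filtered with filterByExpr (minimum count 10), scaled by TMM and tested with edgeR 4.0.16 in R 4.3.3 (glmQLFit and glmQLFTest, Benjamini-Hochberg over 13849 genes, threshold 0.15 as the authors used). DESeq2 1.42.0 and limma voom (limma 3.58.1) were alternatives, as were other scalings, filters and thresholds, a covariate of *Xist*, removal of a length trend (loess, span 0.5), a replicate block and leaving out each library. Two-sided exact permutation tests over 20 labelings compared single log2 CPM values, and log2 CPM used a prior count of 2. The fit was tested on simulated data. Symbols (55154 of 55421 identifiers), positions and exon models came from Gencode M21, in which all 10 genes had the same versioned identifier, and promoters from RefSeq, GRCm38.p6. Named were the 10 genes, *Il4ra*, detected family genes, *Ifng*, *Ifngr1*, *Ifngr2*, *Irf1* and *Irf8*, any called gene and the 3 smallest unadjusted p-values of each pathway list, and the 10 most similar genes. An item, with a motif linked to it, is not reported here. The members and lists were chosen with earlier results of these data known. The ratio of Ly6C markers and its uses were added after seeing the data.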

Additional observations from a re-analysis of the deposited data

Results flagged for a closer look

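The share of all reads that mapped to several places and was therefore not counted on any gene was higher in IL-4Rα-/- libraries, with a median of 9.19% (9.02 to 9.35%), than in IL-4Rα+/+ libraries (8.3 to 8.86%), in 3 of 3 libraries. A two-sided exact permutation test gave p = 0.1, the smallest that 3 against 3 libraries allow. This share lies outside the counts used for the comparisons. The share of reads on no gene went the other way, at 10.3 to 11.7% in IL-4Rα+/+ and 8.87 to 9.68% in IL-4Rα-/- libraries. All reads left out together made up 21.9 to 22.8% in IL-4Rα+/+ and 21.1 to 21.5% in IL-4Rα-/- libraries. Which genes the reads that mapped to several places came from was not analysed here.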

How the results depend on the processing

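Over 17 alternatives, none of the 10 GTPase genes was called in any, and their smallest adjusted p was 0.372 (edgeR, Benjamini-Hochberg). Of 170 values of the log2 fold change, 157 kept their direction and 13 turned, 6 of them outside the settings that leave out a library. *Gbp4* turned to 0.118 and *Gbp7* to -0.0231 with the ratio of Ly6C markers as a covariate. *Irgm2* turned to -0.0043 with *Xist* as a covariate, -0.0357 without the length trend, -0.0045 with the Ly6C covariate and -0.0901 without both libraries richest in Ly6C high markers. Leaving out a library in turn gave -0.344 to 0.0859 for *Gbp4*, -0.0503 to 0.347 for *Gbp7*, -0.0492 to 0.068 for *Irgm2* and -0.0011 to 0.0964 for *Ifngr2*. The Ly6C settings were chosen after seeing the data, and the causes were not tested.

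Over the whole table edgeR called 0 genes, DESeq2 called 80, and edgeR without both Ly6C high libraries called 1, which was *Il4ra* (log2 fold change -2.15, adjusted p = 0.0530). Members with an unadjusted p under 0.05 numbered 2 with the Ly6C covariate (*Gbp3* and *Gbp8*, with 11.4% of all genes), 1 without both Ly6C high libraries (*Gbp2*, with 10.7%) and 0 to 1 when a library was left out, namely *Gbp2* without IL-4Rα+/+ replicate 3 (12.1%) and *Gbp3* without IL-4Rα-/- replicate 2 (5.57%). Members without overlap numbered 0 without the length trend (1800 of 13849 genes) and 1 to 4 when a library was left out (21.4 to 37.1%), with 4 at 37.1% without IL-4Rα+/+ replicate 3. The median log2 fold change of the members then ran from -0.088 to 0.0741.

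The labels do not state whether the replicate numbers pair the samples. Deviations of same-numbered libraries correlated at 0.18, -0.27 and -0.30 over 13849 genes. These values cannot decide it, because the deviations also carry the differences in Ly6C markers between libraries. With the replicate numbers fitted as a block, 0 genes were called and the median of the members was -0.04. Depth limits *Ifng*, *Gbp10*, *Gbp11* and *Gm4841*, which were too low to test.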
